A study of Trichoderma reesei QM6a with 4 samples.

Results

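The genes described here are 10 chitin-degrading enzyme genes of the filamentous fungus Trichoderma reesei: 8 chitinases of glycoside hydrolase family GH18 and 2 N-acetylglucosaminidases of family GH20, nag1 and nag2. They were chosen by the gene name that the array design gives each probe, and make up 10 of 9127 genes and 50 of 43565 probes on the array, 5 probes per gene. The strains measured were AT01 and the wild type, each on 2 one-colour arrays hybridised with Cy3-labelled RNA from mycelium. AT01 is a mutant that the submitters describe as accumulating much copper, and the labels do not name its mutation. Mycelium of both strains, the controls included, came from rich YPD medium with 1 mM copper sulfate after 5 days at 25 °C, so no culture without copper enters any value below.

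Chitin, a polymer of N-acetylglucosamine, is a structural polysaccharide of the cell wall of filamentous fungi. GH18 chitinases cut the polymer, and GH20 N-acetylglucosaminidases release the sugar monomer from the short chains that result. In Trichoderma species these enzymes are known from wall remodelling, recycling of old hyphae, and attack on other fungi and on chitin as food.

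A reference table of the QM6a genome gave a symbol to 9 of the 10 genes through the number in the array name. They are nag1 (ASTRICH21725), nag2 (ASTRICH23346), chi18-5 (ASTRICH80833), chi18-12 (ASTRICH43873), chi18-13 (ASTRICH119859), chi18-14 (ASTRICH124043), chi18-16 (ASTRICH68347), chi18-17 (ASTRICH110317) and chi18-8 (ASTRICH108346). The tenth gene is called by its array name, ASTRICH53949. The reference table lists chi18-8 as a pseudogene and the other 8 named genes as protein coding. Probes of a gene are numbered from 1 to 5 below, in the order of their probe names.

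The AT01 arrays carried more signal than those of the wild type. The 75th percentile of the background-subtracted processed signal was 41.6 and 40.0 on the AT01 arrays, against 20.9 and 22.2 on the wild-type arrays, a ratio of 1.89 between the strains' geometric means. Probes well above background, by the scanner software's flag, made up 61.0% and 60.3% on the AT01 arrays and 48.0% and 46.0% on the wild-type arrays. Each array's log2 signals were therefore set relative to its own 75th percentile, and this is called the scaled log2 signal. The software gives dim probes a lowest value of 1.42 to 1.57 before scaling, which lay at -4.76 and -4.74 on the AT01 arrays and -3.88 and -3.82 on the wild-type arrays after it. No label names separate cultures behind the 2 arrays of each strain, so that the p-values cover array-to-array spread that could be technical. All 4 arrays shared 1 scan, in which each strain took neighbouring positions, so strain and position cannot be told apart. RNA came from whole mycelium, where fewer expressing cells and less RNA per cell cannot be told apart.

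The chitin-degrading genes were dim. Of their 50 probes, 15 and 15 were well above background on the AT01 arrays and 11 and 11 on the wild-type arrays, and 34 were so on no array. The lowest value of the array was held by 14 and 15 of the 50 probes on the AT01 arrays and by 21 and 22 on the wild-type arrays. Only nag1 had most of its probes well above background on each array. For nag2 and chi18-12 this was true of no probe on any array, and those genes were not tested.

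**Figure D1:**
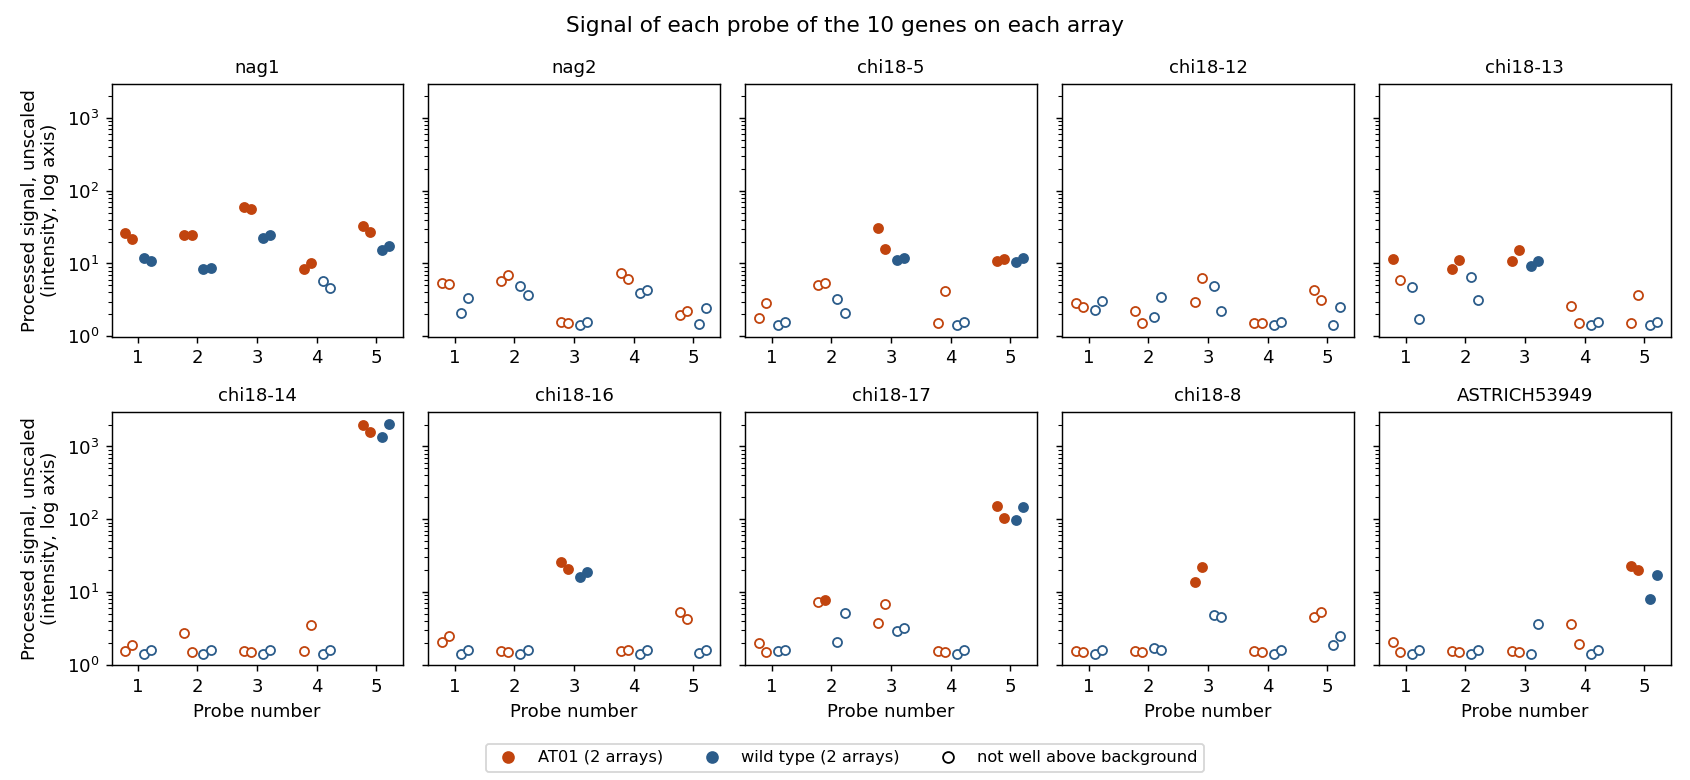
Processed signal (intensity, log axis, before scaling) of each of the 5 probes of each gene, with AT01 arrays to the left of wild-type arrays at each probe. Filled points are well above background: nag1 has them at nearly every probe, nag2 and chi18-12 at none, and chi18-14, chi18-16, chi18-8 and ASTRICH53949 at a single probe each.

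After scaling, 4 GH18 chitinase genes were lower in AT01, chi18-14, chi18-16, chi18-17 and ASTRICH53949, and none of the 8 genes tested was called higher. Of the 8 genes tested, 4 fell in limma (threshold of 0.05 on the p adjusted by Benjamini-Hochberg), while 32.7% of the 8018 genes tested over the array fell and 14.6% rose. The median log2 fold change of the 8 was -0.34, against -0.23 over all genes tested. That median of all genes moved to -0.016 with quantile normalization and to -0.076 with a shared floor of -3.82 under the scaled values, called the common lower limit below. Under this floor, under cyclic loess and under quantile normalization, 0 of the 8 genes passed the threshold in limma, and 0 had an unadjusted p under 0.05. Falls were found for 16.4%, 11.2% and 11% of all genes in these 3 settings.

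**Figure D2:**
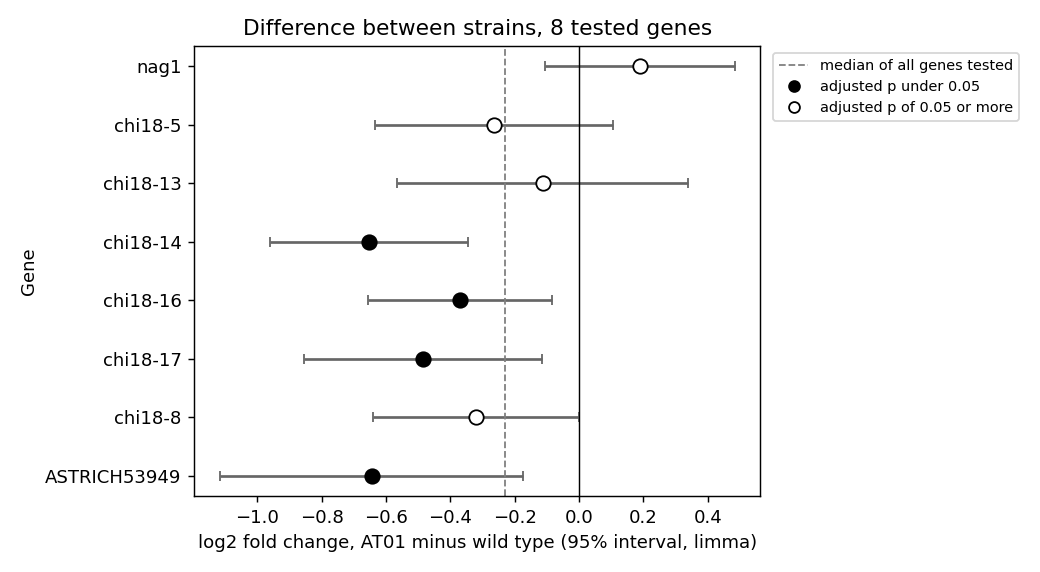
Log2 fold change (AT01 minus wild type, x axis) of the 8 tested genes with 95% intervals from limma, filled where the adjusted p was under 0.05 and with a dashed line at the median of all genes tested, -0.23. The 4 filled points lie between -0.65 and -0.37, and the point of nag1 is the only one above 0.

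The N-acetylglucosaminidase gene nag1 was the best measured of the 10, and its level relative to the rest of the array did not pass the test. On probe 3 the processed signal was 59.2 and 56.5 on the AT01 arrays and 22.7 and 24.5 on the wild-type arrays. Probe 2 gave 24.6 and 24.3 in AT01, against 8.27 and 8.74 in the wild type. Its 4 probes that were well above background on every array were brighter in AT01 before scaling, by 1.82-fold to 2.88-fold, with no overlap between the strains on any of them. These folds stand beside the 1.89-fold difference in brightness between the arrays as a whole.

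Relative to the 75th percentile, nag1 averaged -0.72 and -0.73 over its probes on the AT01 arrays and -0.86 and -0.97 on the wild-type arrays. Both AT01 arrays lay above both wild-type arrays, as they did for 24.7% of all genes tested. Its log2 fold change was 0.19 ± 0.12 (SE, n = 2 arrays per strain), with a 95% interval from -0.11 to 0.48 and a Benjamini-Hochberg adjusted p of 0.239 in limma. The interval therefore leaves room for a rise of nearly 0.5 on the log2 scale and for a small fall. Leaving out any 1 array gave 0.13 to 0.25.

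The probes of nag1 were also fitted singly. In a limma fit over the 25102 probes that either strain measured on its 2 arrays, where 15% of probes rose and 17.5% fell, probe 2 rose by 0.60 ± 0.14 on the log2 scale (Benjamini-Hochberg adjusted p = 0.0334). Probe 3 lay at 0.37 ± 0.14 (adjusted p = 0.0989 in limma), and probes 1 and 5 at 0.14 and -0.059, and differences between probes were not tested. Probe 4 was well above background on both AT01 arrays, with signals of 8.29 and 10.1, and on neither wild-type array, with 5.80 and 4.68. Its wild-type signal is thus near background, so no difference is given, and no fold bound above 1 followed from it.

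The second GH20 gene, nag2, gave signals of 1.50 to 7.30 over its 5 probes on the AT01 arrays and 1.42 to 4.86 on the wild-type arrays. Its scaled log2 signal was -3.49 and -3.41 in AT01 and -3.11 and -2.93 in the wild type. No probe was well above background, so no fold change is given, and a difference in nag2 was not detectable at this signal.

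Among the chitinases, chi18-5 is the T. reesei counterpart of the secreted endochitinase ech42 of other Trichoderma species. Its scaled log2 signal was -2.95 and -2.61 on the AT01 arrays and -2.46 and -2.57 on the wild-type arrays. The AT01 arrays lay lower, by a margin smaller than the gap between them, and the log2 fold change of -0.27 ± 0.15 (SE, n = 2 arrays per strain) did not pass the test (adjusted p = 0.193, limma with Benjamini-Hochberg adjustment). Its 95% interval ran from -0.64 to 0.10.

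The 2 measured probes of chi18-5 gave different estimates with overlapping intervals, and the difference between them was not tested. Probe 5 had a nearly equal signal in both strains before scaling, 10.7 and 11.5 in AT01 and 10.5 and 11.9 in the wild type, and so fell by 0.93 ± 0.15 on the log2 scale after it (Benjamini-Hochberg adjusted p = 0.0178 in limma). Probe 3 gave 30.5 and 15.7 in AT01 and 11.2 and 11.9 in the wild type, a scaled log2 difference of -0.0011 ± 0.32. The AT01 arrays differed from each other on probe 3 by more than the wild-type arrays did.

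The genes chi18-12, chi18-13, chi18-14, chi18-16 and chi18-17 belong to the group of fungal GH18 enzymes related to plant chitinases. Of these, chi18-12, the counterpart of chit33 of Trichoderma harzianum, was not measured: its signals were 1.50 to 6.28 in AT01 and 1.42 to 4.92 in the wild type, none well above background. For chi18-13 the arrays of the strains overlapped, with scaled log2 signals of -2.97 and -2.83 in AT01 and -2.54 and -3.04 in the wild type. Its log2 fold change was -0.11 ± 0.19 (SE, n = 2 arrays per strain, adjusted p = 0.639 in limma). The sign turned with quantile normalization (0.12), cyclic loess (0.10), the common lower limit (0.079) and without wild-type array 1 (0.14). Probe 3 of chi18-13 alone was well above background on all 4 arrays, with a scaled log2 difference of -0.55 ± 0.23 (adjusted p = 0.128 in a limma fit over probes). Probe 2 was well above background on both AT01 arrays only, and probe 1 on AT01 array 1 only.

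The lowest adjusted p among the 10 genes belonged to chi18-14. Its scaled log2 signal was -2.53 and -2.43 on the AT01 arrays and -1.90 and -1.75 on the wild-type arrays, with no overlap. The share of all genes with both AT01 arrays below both wild-type arrays was not counted. The gene fell by 0.65 ± 0.13 in log2 units (SE, n = 2 arrays per strain, Benjamini-Hochberg adjusted p = 0.00934 in limma). A single probe, probe 5, carried its signal, with 1954 and 1571 in AT01 and 1366 and 2056 in the wild type before scaling. These overlap, and the wild-type arrays differed from each other more than the strains did.

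On probe 5 alone the scaled log2 difference of chi18-14 was -0.86 ± 0.23 (adjusted p = 0.0460 in the limma fit over probes), and it was -0.21 after quantile normalization and -0.21 in the authors' deposited table. The other 4 probes were at or near the lowest value of the array. The call ended with the common lower limit (-0.14), quantile normalization (0.086), cyclic loess (0.038), in the authors' deposited table, and without AT01 array 1 (-0.60, limma's adjusted p = 0.0542).

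The gene chi18-17 also had 1 probe well above background on all 4 arrays. That probe, probe 5, gave 150.9 and 104.7 in AT01 and 97.9 and 145.2 in the wild type before scaling, again with overlapping strains, and a scaled log2 difference of -0.85 ± 0.26 (adjusted p = 0.0627 in the limma fit over probes). Averaged over its probes, the gene had a scaled log2 signal of -2.65 and -2.60 in AT01 and -2.31 and -1.97 in the wild type. It fell by 0.48 ± 0.15 on the log2 scale (adjusted p = 0.0408, limma with Benjamini-Hochberg adjustment). The call ended with the common lower limit (-0.16), quantile normalization (-0.19), cyclic loess (-0.13), in the authors' deposited table (-0.36), and without AT01 array 1 (-0.46), AT01 array 2 (-0.51) or wild-type array 2 (-0.31). It also ended with the percentile over measured probes (-0.38), with the average of measured probes (-0.85) and, at the same value, with a trended and robust prior variance.

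The gene chi18-16 fell by 0.37 ± 0.12 in log2 units (SE, n = 2 arrays per strain, limma's Benjamini-Hochberg adjusted p = 0.0430). Its scaled log2 signal was -3.50 and -3.51 on the AT01 arrays and -3.17 and -3.10 on the wild-type arrays. Probe 3 alone was measured, with signals of 26.2 and 20.6 in AT01 and 16.2 and 19.0 in the wild type, brighter in AT01 before scaling and lower by 0.52 ± 0.17 on the log2 scale after it (adjusted p = 0.0783 in the limma fit over probes). Of its other probes, probe 5 gave 5.38 and 4.30 in AT01 against 1.47 and 1.57 in the wild type, below the flag for a measured spot. The call ended without any 1 of the 4 arrays (-0.34 to -0.40) and, at the same value, with the replicate number as a block (adjusted p = 0.0635 in limma), and the sign turned with the common lower limit (0.044), quantile normalization (0.14) and cyclic loess (0.13). It also ended with the percentile over measured probes (-0.26), with the brightest probe or the average of measured probes (-0.52 in both) and, at the same value, with a trended and robust prior variance. In the authors' deposited table, which holds probe 3 alone, chi18-16 was lower by 0.51 (adjusted p = 0.0471 in limma).

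ASTRICH53949 fell by 0.64 ± 0.20 in log2 units (SE, n = 2 arrays per strain, adjusted p = 0.0357 in limma after Benjamini-Hochberg adjustment). The scaled log2 signal was -3.65 and -3.91 in AT01 and -3.38 and -2.89 in the wild type. The single measured probe, probe 5, gave 22.9 and 20.3 in AT01 and 7.92 and 17.3 in the wild type, and after scaling differed by -0.039 ± 0.36 between the strains. The fall thus came from the other 4 probes, which were well above background on no array. It ended with the common lower limit (-0.098) and without AT01 array 1 (-0.77), AT01 array 2 (-0.51) or wild-type array 2 (-0.40). It also ended with quantile normalization (-0.076), cyclic loess (-0.11), the percentile over measured probes (-0.54), the brightest probe or the average of measured probes (-0.039 in both), and in the authors' deposited table, which holds probe 5 alone (-0.025).

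Unlike the other 7 tested genes, chi18-8 was measured in AT01 only, so it entered the test through the AT01 arrays. It belongs to the group of large GH18 proteins that resemble a subunit of the killer toxin of the yeast Kluyveromyces lactis. Probe 3 gave 13.8 and 21.8 on the AT01 arrays, well above background, and 4.79 and 4.55 on the wild-type arrays, not well above background. Set against the lowest signal well above background on each wild-type array, the mean scaled signal of probe 3 was at least 1.23-fold higher in AT01. This bound on the mean rests on AT01 array 2, at a scaled log2 signal of -0.88. AT01 array 1, at -1.60, gave no bound above 1 by itself. No difference other than the bound on the mean is given for probe 3 (adjusted p = 0.0537 in the limma fit over probes), and the probe entered that fit only through the AT01 arrays.

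Probe 5 of chi18-8 was also brighter in AT01, at 4.53 and 5.40 against 1.89 and 2.47 in the wild type, but on no array well above background. The other 3 probes were at or near the lowest value everywhere, with scaled log2 differences of -0.90 to -1.04. Averaged over its 5 probes, chi18-8 therefore had a log2 fold change of the opposite sign, -0.32 ± 0.13 (SE, n = 2 arrays per strain, adjusted p = 0.0907 in limma). On the scaled log2 scale it averaged -3.82 and -3.60 in AT01 and -3.39 and -3.38 in the wild type. The mean, too, is against wild-type signals near background. The brightest probe, the average of measured probes and the authors' deposited table all rest on probe 3 for chi18-8. In these settings the gene was on the AT01 side, with the bound above as the only size that can be given. Over all genes, 9.93% rose and 30.4% fell with the brightest probe, 15% rose and 22.5% fell with the average of measured probes, and 14.9% rose and 14.7% fell in the authors' deposited table.

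**Figure D3:**
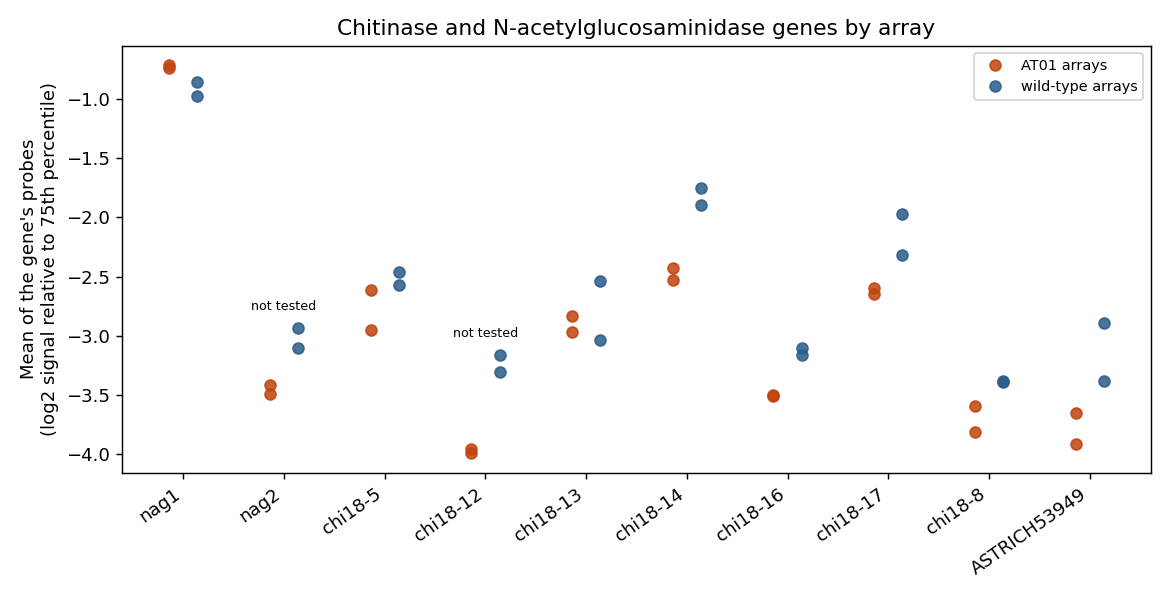
Scaled log2 signal (y axis, relative to the 75th percentile of the array) of each gene, the mean of its 5 probes, with the AT01 arrays left of the wild-type arrays. AT01 lies higher for nag1, overlaps the wild type for chi18-13 and lies lower for the rest, including nag2 and chi18-12, which were not tested. The share of all genes with both AT01 arrays lower was not counted.

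Differences ran lower for dim probes than for measured ones. For the 7 of 50 probes that held that value on all 4 arrays, the scaled log2 difference was -0.90, which is the difference between the strains in the scaled lowest value itself. The 34 probes well above background on no array had a median difference of -0.62, and 29 of them were lower in AT01. Among all probes of the array that were well above background on no array, the share lower in AT01 was not counted. These 34 are therefore not set apart from dim probes in general. The 11 probes well above background on all 4 arrays belonged to 7 genes and had a median difference of -0.059, with 3 higher and 8 lower. Over all 18668 such probes of the array the median was -0.23, with 6801 higher and 11867 lower. Of the 14 member probes tested, 1 rose and 2 fell, namely probe 2 of nag1, probe 5 of chi18-5 and probe 5 of chi18-14. Over all 25102 probes tested, 15% rose and 17.5% fell.

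The number of these genes that fell differed between settings, as did the share over the array. After normexp background correction, 7 of the 8 fell, all but nag1, where 59.3% of all genes did. With the percentile over measured probes 1 of 8 fell, against 22.3% of all genes, and with a trended and robust prior variance 2 of 8, against 34%. With 1 array left out, 0 fell without AT01 array 1, 1 without AT01 array 2, 3 when wild-type array 1 was dropped and 1 when wild-type array 2 was, where 18%, 12.4%, 26.6% and 26.6% of all genes fell. With the replicate number as a block 3 fell, against 36.6% of all genes, and with outlying spots left out on their own array only 4 fell, against 30.8%.

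**Figure D4:**
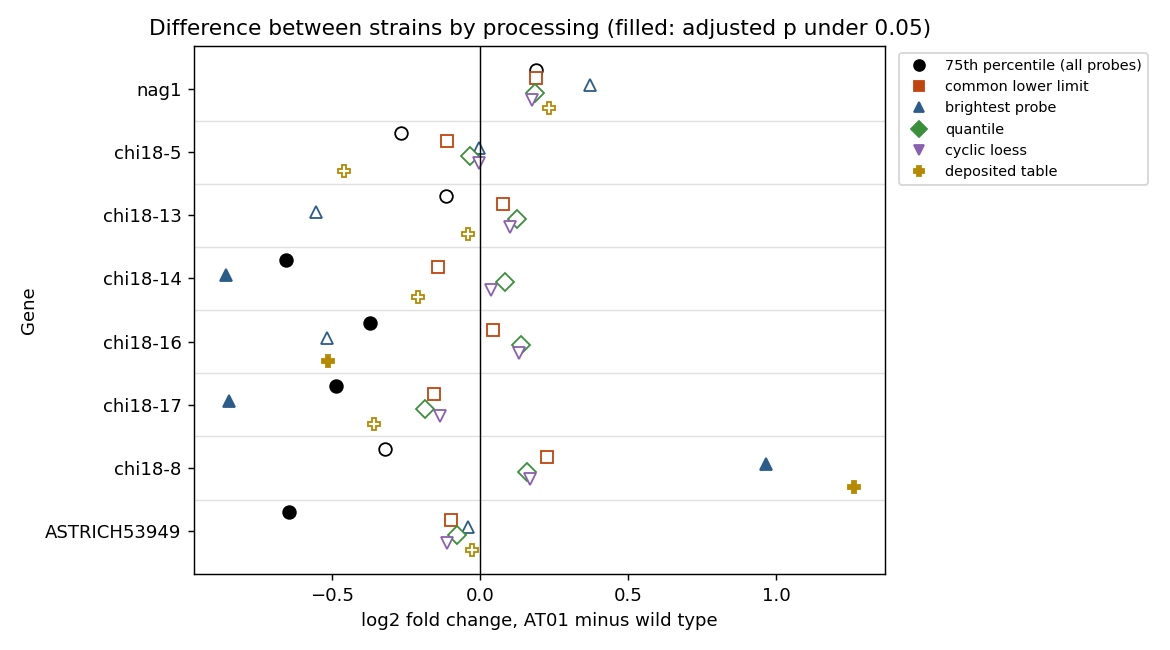
Log2 fold change (AT01 minus wild type, x axis) of each tested gene in 6 ways of processing, filled where the adjusted p was under 0.05. The black circles of chi18-14, chi18-16, chi18-17 and ASTRICH53949 are filled and the squares, diamonds and downward triangles of the same genes are open. For chi18-8, whose wild-type signal is near background, the triangle and cross are its probe 3 alone and are no measured fold changes.

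The reference table gave chitinase symbols to 11 further genes, of which 10 were on the array and 5 were tested. None of the 5 passed the test in limma, 1 had an unadjusted p under 0.05, and the median log2 fold change was -0.012. The one with the lowest p was chi18-rel2, a chitinase-related gene, at 0.38 ± 0.13 (SE, n = 2 arrays per strain, adjusted p = 0.0570 in limma). Its scaled signal (log2) was -2.22 and -2.21 in AT01 and -2.48 and -2.70 in the wild type. It had 3 probes well above background on each AT01 array and 0 on each wild-type array, so that its difference, too, is against a signal near background, and no bound above 1 followed for the mean of its probes.

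The other 2 genes with the largest absolute fold changes of the 5 were chi18-15 and chi18-7. The log2 fold change of chi18-15 was -0.47 ± 0.22 (adjusted p = 0.120 in limma), with -3.67 and -3.63 in AT01 and -3.51 and -2.85 in the wild type, and it was called lower without wild-type array 1 (-0.80, limma's adjusted p = 0.0103). The log2 fold change of chi18-7 was -0.29 ± 0.13 (adjusted p = 0.113 in limma). That gene was well above background with all 5 probes on every array, at 0.68 and 0.83 in AT01 and 1.12 and 0.96 in the wild type. Its arrays did not overlap, with AT01 lower, and the share of all genes placed so was not counted. Both chi18-6 (0.23 ± 0.12) and chi18-2 (-0.012 ± 0.22) were also short of the threshold in limma, and chi18-3, chi18-4, chi18-9, chi18-rel1 and chit18-11 were not tested. Calls among the 5 came and went with the processing, as did the share over all genes. On the AT01 side, 9.93% of all genes rose with the brightest probe and 14.9% in the authors' deposited table. With the percentile over measured probes 1355 of 8018 rose. With the brightest probe alone, chi18-2 (-1.02) and chi18-6 (-0.89) were called lower in limma, where 30.4% of all genes fell. With the average of measured probes chi18-2 was called lower, where 22.5% of all genes fell. Normexp called 4 of the 5 lower, against 59.3% of all genes, namely chi18-2 (-0.20), chi18-6 (-0.16), chi18-15 (-0.20) and chi18-rel2. At an unchanged value, chi18-15 was called lower with the replicate number as a block, where 36.6% of all genes fell. So was chi18-7 when the prior variance was trended and robust, where 34% fell. For chi18-rel2, which entered the test only through AT01, the adjusted p was under the threshold on the AT01 side with the brightest probe, the percentile over measured probes, the authors' deposited table and without wild-type array 1, but no size is given against a wild-type signal near background.

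**Figure D5:**
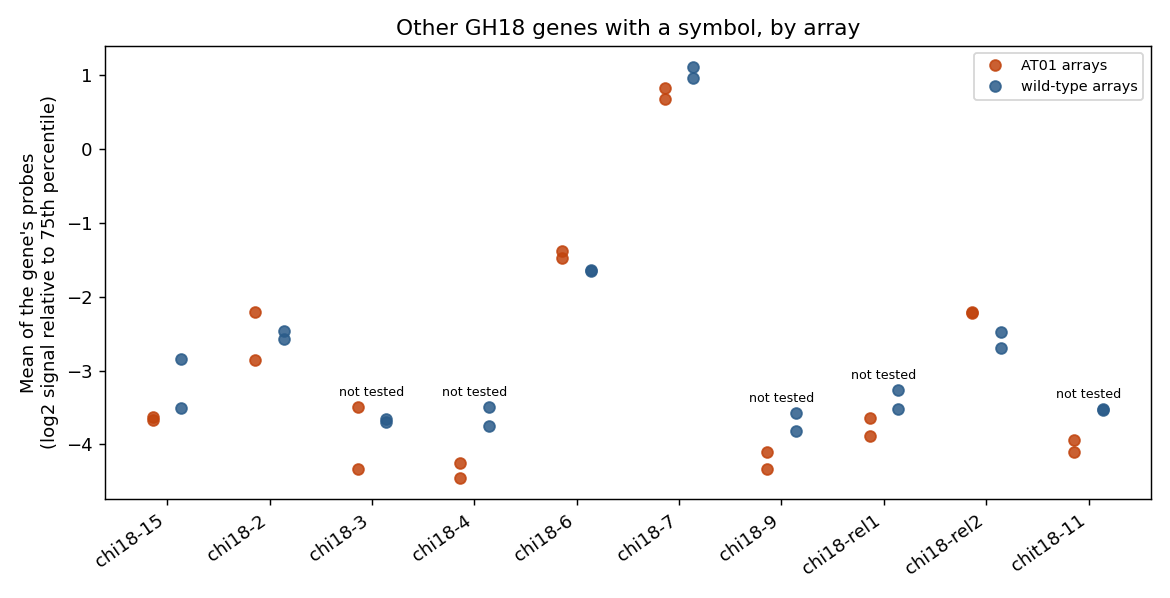
Scaled log2 signal (y axis) of the 10 further genes with a chitinase symbol, AT01 arrays left of wild-type arrays. AT01 lies higher for chi18-6 and chi18-rel2 and overlaps the wild type for chi18-2 and chi18-3, and the 5 genes not tested lie near the lowest scaled values.

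Among 1549 genes with all probes well above background on all 4 arrays, the 3 whose scaled log2 profile over the 4 arrays, less its mean, lay nearest to that of nag1 were ASTRICH64790, ASTRICH22914 and ASTRICH122091. Their Euclidean distances were 0.014, 0.016 and 0.040, and their log2 fold changes 0.18, 0.18 and 0.15. With 4 arrays this is a description of likeness only.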

How the data were processed

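The submitters' processing notes name Agilent Feature Extraction 10.5.1.1 as the image software. Per the file headers, the authors deposited linear intensity values for each spot: a processed signal from which background had been subtracted, the median signals of spot and background, and quality flags. The authors' table of values holds log2 numbers, judged from its values (Pearson's r of 0.993 to 0.996 across probes with the log2 processed signal of the same array, column medians of 4.31), and was normalized between arrays by a method not given in the sources used here. It covered 28201 probes. On probe 5 of chi18-14 (-0.21) and probe 5 of chi18-17 (-0.72) its difference between strains was the same as after quantile normalization. The 2 settings are therefore not separate evidence on these probes, though they differed on dimmer ones.

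Control spots and 142 probes flagged as outlying on any array were left out, and no spot was saturated. Log2 processed signals, less the 75th percentile of the array, were averaged over the probes of a gene. A gene was tested if either strain had a probe well above background on both of its arrays, which 8018 genes met. All were fitted together in limma 3.58.1 (lmFit, eBayes, R 4.3.3) and called where the p adjusted by Benjamini-Hochberg was under 0.05. Probes were fitted likewise. Before that, the gene fit was tested on simulated data without differences between strains in brightness or in the lowest value. That test therefore says nothing about calls that rest on dim probes.

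A probe well above background in 1 strain only gives a bound, against the higher of its own value and the lowest signal well above background on each array. The number in 9070 of 9127 array names (99.4%) matched that of a locus tag in RefSeq's QM6a assembly v2.0. The array's own gene build is not named, so no coordinates are given. The number of arrays limits precision. The 10 genes, the further lists and the tests were chosen with earlier results of these data known. Named are the 10 genes, up to 3 further chitinase genes by size of change, and the 3 genes nearest to nag1. Genes named beyond these were chosen after their values were seen. Lists of chitin synthases, chitin deacetylases, sugar use and glucan enzymes found 0 genes, because the reference table holds symbols and no descriptions. Normexp used the median spot signal.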

Additional observations from a re-analysis of the deposited data

How the results depend on the processing

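Of the 8 tested genes, 4 were called with 75th percentile scaling, all lower, and 3786 of all genes, of which 30.9% rose. In limma the counts were 0 of 8 and 2099 with quantile normalization (58.0% rises), 0 and 2194 with cyclic loess (59.2%), and 0 and 2515 with the common lower limit (47.8%), with 0 of 8 at an unadjusted p under 0.05 in each. They were 2 (chi18-8 on the AT01 side, chi18-16 lower) and 2372 (50.2%) in the authors' deposited table. With the percentile over probes measured on all arrays they were 1 (chi18-14) and 3142 (43.1%). With the average of measured probes they were 2 (chi18-8 on the AT01 side, chi18-14 lower) and 3001 (40.0%). With the brightest probe they were 3 (chi18-8 on the AT01 side, chi18-14 and chi18-17 lower) and 3230 (24.6%). At unchanged values, the same 4 genes as with 75th percentile scaling were called with no filter on genes, and 4408 over the array (26.0%). Among genes with a probe well above background on all arrays, the counts were 4 of 7 and 3558 (30.7%). In the deposited table, the brightest probe and the average of measured probes, chi18-8 rests on probe 3, against a wild-type signal near background. That gene entered the test only through the AT01 arrays. A trended and robust prior variance called 2 (chi18-14 and ASTRICH53949) and 4015 over the array (32.1% rises). Normexp background correction with an offset of 50 called 7, all lower, and 5623 over the array (15.5% rises). With 1 array left out the counts ran from 0 to 3 and from 1507 to 3205, in fits with 1 array in a strain, which is assumed to vary like the other strain. The 0 was found without AT01 array 1, where 2 of 8 had an unadjusted p under 0.05.

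Signs turned as follows. With quantile normalization chi18-13 lay at 0.12, chi18-14 at 0.086, chi18-16 at 0.14 and chi18-8 at 0.16, and with cyclic loess at 0.10, 0.038, 0.13 and 0.17. With the common lower limit chi18-13 lay at 0.079, chi18-16 at 0.044 and chi18-8 at 0.23. The sign of chi18-8 also turned with the brightest probe (0.97), the average of measured probes (0.97) and the deposited table (1.26), all from probe 3, whose wild-type signal is near background so that these are no measured folds, that of nag1 with normexp (-0.010), and that of chi18-13 without wild-type array 1 (-0.36 to 0.14 with 1 array left out). The cause was not tested, except that the common lower limit removes the difference between strains in the lowest scaled value by construction.

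The fit with the replicate number as a block called 3 of the 8 genes, and 4174 over the array, and lost chi18-16 (-0.37, limma's adjusted p = 0.0635). Samples share only a number: deviations of same-numbered arrays correlated at 0.0056 across genes. Leaving out outlying spots on their own array only, an alternative chosen after seeing the data, called the same 4 genes, and 3568 over the array. A block for the scan could not be fitted, since all arrays shared it. Signal over background limits nag2, chi18-12 and 34 of the 50 probes.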
